A study of Mus musculus with 2 samples.

Results

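Acetylcholine in the striatum comes mainly from cholinergic interneurons, a sparse class of large local neurons, and this account follows 9 genes of that system: Chat, Slc18a3, Slc5a7, Ache, Lhx8, Slc17a8, Chrna4, Chrna7 and Chrnb2. They were chosen by name, with earlier results of these data known. Every probe set that the platform annotation pairs with one of them alone was used. Of the 9, 8 had such a probe set, out of 18193 genes measured, and these 8 genes had 13 probe sets. Slc17a8, a vesicular glutamate transporter that these interneurons also carry, had none and was not analysed here. Striatal RNA had been measured on Affymetrix expression arrays, with a single array for each genotype: wild type, and Drd2-/-, which lacks the dopamine D2 receptor gene. Both samples came from untreated male mice of C57BL/6 background aged 2 months, and the striatum was dissected by hand. The sources used here do not say how the Drd2-/- allele was made, in which cells, or whether a sample was 1 animal or a pool. With 1 array per genotype there is no replicate error and no test, so every difference below describes these 2 arrays only.

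Cholinergic interneurons fire tonically, and D2 receptors on them slow that firing and lower acetylcholine release. Choline is taken up by the transporter Slc5a7, acetylated by Chat, loaded into vesicles by Slc18a3 and, after release, broken down by Ache. Released acetylcholine acts on muscarinic receptors, which couple to G proteins, and on nicotinic receptors, which are ion channels of 5 subunits. In the forebrain the common nicotinic receptors combine Chrna4 with Chrnb2 subunits or consist of Chrna7 alone, and many of the striatal ones sit on dopamine axons whose cell bodies lie in the midbrain. RNA made in those cell bodies is largely outside the dissected tissue.

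Chat and Slc18a3 share 1 locus: in the RefSeq annotation Slc18a3 lies wholly inside Chat, with its start 1059 bases downstream of the Chat start on the same strand. The upstream sequences of the 3 genes that make, load and recycle the transmitter are shown because the first pair share a locus while the third stands apart. Each is the 250 bases before the start, 5′ to 3′, from RefSeq on build GRCm38.p6, all on the minus strand: Chat at chr14:32465910-32466159, Slc18a3 at chr14:32464851-32465100 and Slc5a7 at chr17:54299035-54299284. Capitals mark TGACG on either strand (written CGTCA on the other), the half-site of the cAMP response element.
Chat: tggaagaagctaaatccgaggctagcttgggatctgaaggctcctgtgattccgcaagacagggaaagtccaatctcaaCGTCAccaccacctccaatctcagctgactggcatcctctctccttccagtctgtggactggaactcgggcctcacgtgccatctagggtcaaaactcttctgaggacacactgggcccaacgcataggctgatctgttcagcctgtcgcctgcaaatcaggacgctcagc
Slc18a3: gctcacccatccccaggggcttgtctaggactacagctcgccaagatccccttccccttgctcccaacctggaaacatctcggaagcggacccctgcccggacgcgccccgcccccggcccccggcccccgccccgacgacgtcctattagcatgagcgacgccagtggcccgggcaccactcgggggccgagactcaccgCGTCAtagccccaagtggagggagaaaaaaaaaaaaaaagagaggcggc
Slc5a7: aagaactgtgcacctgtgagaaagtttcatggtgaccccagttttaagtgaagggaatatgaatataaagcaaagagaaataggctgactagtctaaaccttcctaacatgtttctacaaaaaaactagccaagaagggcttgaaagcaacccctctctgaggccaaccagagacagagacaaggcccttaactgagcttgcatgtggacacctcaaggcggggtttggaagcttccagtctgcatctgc
Chat and Slc18a3 each hold 1 match, starting 171 and 49 bases before the start, and Slc5a7 holds none. Of 32851 mouse upstream windows of this length, 17.8% hold at least 1. The core LIM homeodomain motif TAATTA, of the class of sites that Lhx8 and its relatives bind, was in none of these 3 windows and in 4.84% of all windows. A match is a run of letters and not a measured site, and the arrays did not measure binding.

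Drd2 itself checks the labels. Its probe set read 3234.8 signal units and was called present on the array labelled wild type, and read 27.4 units and was called absent on the array labelled Drd2-/-. Whether that probe set lies inside the deleted part is not known from the sources used here. The authors' deposited comparison table holds the same signals under opposite genotype names, so every direction here, including those quoted from that table, follows the sample labels, and the names in that table would reverse them all. The striatal projection neuron markers Penk, Tac1, Ppp1r1b and Rgs9 were called present on both arrays by their brightest probe sets. The signals had been scaled so that the mean without the outer 2% at each end was 500.0 units on both arrays, 57.9% and 58.7% of all probe sets were called present in wild type and Drd2-/-, and the median signals were 104.3 and 132.6 units.

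The transporter genes of acetylcholine handling were less than 1.5-fold apart between the arrays, and not in one direction by the signals. The vesicular transporter Slc18a3 (1422203_at) read 296.2 units in wild type and 262.0 in Drd2-/-, a log2 ratio of Drd2-/- over wild type of -0.18. The choline transporter Slc5a7 (1421428_at) read 188.2 and 249.8 units, a log2 ratio of 0.41 or 1.33-fold higher in Drd2-/-. The pair are both needed at a cholinergic terminal, and their ratios from the signals lay on opposite sides of 0. The authors' deposited table gives Slc18a3 a log ratio of -0.2 with limits of -0.5 and 0.1, so its direction is not settled. For Slc5a7 that table gives 0.5 with limits of 0 and 0.9 and calls it increased. Both probe sets were designed on full-length messages and called present on both arrays.

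Chat, the acetylcholine-synthesizing enzyme and the defining gene of the cell type, was not called present on either array. Its single probe set (1440070_at) read 25.2 units in wild type and 50.7 in Drd2-/-, and the detection p-values in the authors' deposited table were 0.129639 and 0.111572. That probe set was designed on an expressed sequence tag rather than a full-length message. No fold is given for it, since neither signal was above background by the authors' call. By contrast Slc18a3, transcribed from the same locus, was called present on both.

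Acetylcholinesterase, encoded by Ache (1422635_at), read 769.2 units in wild type and 729.2 in Drd2-/-, a log2 ratio of -0.08. The authors' deposited table gives it 0.1 with limits of -0.1 and 0.3, so its direction is not settled. The enzyme that ends the signal was thus near level on both measures. Lhx8 (1427300_at), a LIM homeobox factor needed for forebrain cholinergic neurons to form, read 570.5 and 438.5 units, a log2 ratio of -0.38 or 1.30-fold lower in Drd2-/-. The authors' deposited table gives Lhx8 a smaller log ratio of -0.1, with limits of -0.3 and 0. In bulk tissue, fewer cells of a type and less RNA per cell cannot be told apart.

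**Figure D1:**
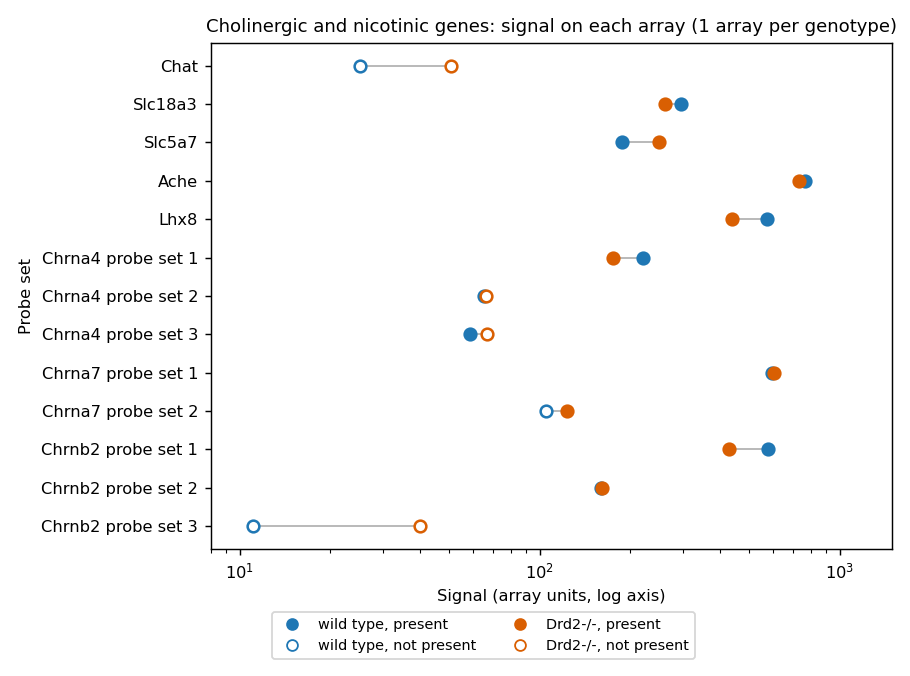
Signal of each of the 13 probe sets of the 8 measured genes on the wild-type array (blue) and the Drd2-/- array (orange), in array units on a log axis, 1 array per genotype. Filled points were called present and open points were not; the brighter probe sets of each gene lie close together on the 2 arrays, and Chat and the third probe set of Chrnb2, both open, lie at or below 50.7 units and are the farthest apart.

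The nicotinic subunits were each seen by more than 1 probe set, and the probe sets did not all read alike. The brightest probe set of Chrna4 (1421203_at) read 221.1 units in wild type and 175.5 in Drd2-/-, a log2 ratio of -0.33. The other Chrna4 probe sets were called present in wild type alone, at 65.4 against 66.3 units (1456354_at, marginal in Drd2-/-) and 58.4 against 66.7 units (1421202_at, absent in Drd2-/-). In both, the array without a present call had the higher signal, so no fold is given. By the signals the lower Chrna4 reading thus rests on 1 of 3 probe sets. The authors' deposited table gives all 3 a log ratio below 0, at -0.2, -0.1 and -0.6 in the same order, and calls each unchanged. Their limits, -0.6 to 0.1, -0.6 to 0.5 and -1.4 to 0.2, all span 0, so the direction of Chrna4 is not settled.

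Chrnb2, the usual partner of Chrna4, had the lowest ratio of the set from the signals as deposited, though Chrna4 was lower after quantile normalization (-0.58 against -0.50) and after intensity-dependent centring (-0.49 against -0.43). Its brightest probe set (1436428_at, designed on an expressed sequence tag) read 577.0 units in wild type and 428.0 in Drd2-/-, a log2 ratio of -0.43 or 1.35-fold lower. Its second probe set (1420744_at), designed on the full-length message, read 160.1 and 161.0 units, a log2 ratio of 0.01. The third (1441837_at) read 11.1 and 39.8 units and was called present on neither array, being absent in wild type and marginal in Drd2-/-. In the same order, the authors' deposited table gives these probe sets log ratios of -0.3, -0.1 and 1.9 and calls each unchanged. The limits of the last are 0.1 and 3.8, from signals not called present. The probe sets of Chrnb2 that were present on both arrays were 0.44 apart on the log2 scale, against a median range of 0.34 over the 5484 genes with 2 or more such probe sets.

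Chrna7, whose subunits form a calcium-permeable receptor of their own, was nearly level. Its brightest probe set (1440681_at) read 592.9 units in wild type and 605.9 in Drd2-/-, a log2 ratio of 0.03. The second (1450299_at), designed on the full-length message, read 104.7 units and absent in wild type and 123.2 units and present in Drd2-/-, at least 1.18-fold higher by the signals alone. That probe set has a log ratio of -0.4 in the authors' deposited table, with limits of -0.9 and 0.1, which leaves its direction unsettled and that bound not firm.

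Of the 13 probe sets, 11 were called present on at least 1 array, 8 of them on both. None of the 11 was 1.5-fold apart, a log2 ratio of 0.58, whereas 17.5% of the 23484 detected probe sets with 1 gene were. Their log2 ratios ran from -0.43 to 0.41, a range that held 72.5% of those 23484. By the brightest probe set, 7 of the 8 measured genes were detected, 0 of the 7 were 1.5-fold apart against 12.6% of the 12588 detected genes, and 5 of the 7 had a ratio below 0 against 57.1%. The median of the 7 was -0.18 and that of all detected genes -0.06, with quartiles of -0.24 and 0.19. Read against those shares, a count of 0 among 7 genes or 11 probe sets is not a result about the group.

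Of the 13 probe sets, the authors' deposited table calls 1 increased in Drd2-/-, that of Slc5a7, and the other 12 unchanged. The log ratio of Slc5a7 there was 0.5, with limits of 0 and 0.9. Over the 23484 detected probe sets the same table calls 11.8% increased and 4.35% decreased, and of the members' 11 detected probe sets 1 was called, which is near that background. Such a call rests on the probes of a single pair of arrays, with no replicate animals behind it. Among the 8 probe sets present on both arrays, the ratio of the signals and the authors' log ratio differed by a median of 0.12 and at most 0.28 on the log2 scale, and had opposite signs in 2 of 8, those of Ache and the second of Chrnb2. Over all 21037 such probe sets the median difference was 0.10 and the signs were opposite in 2312.

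**Figure D2:**
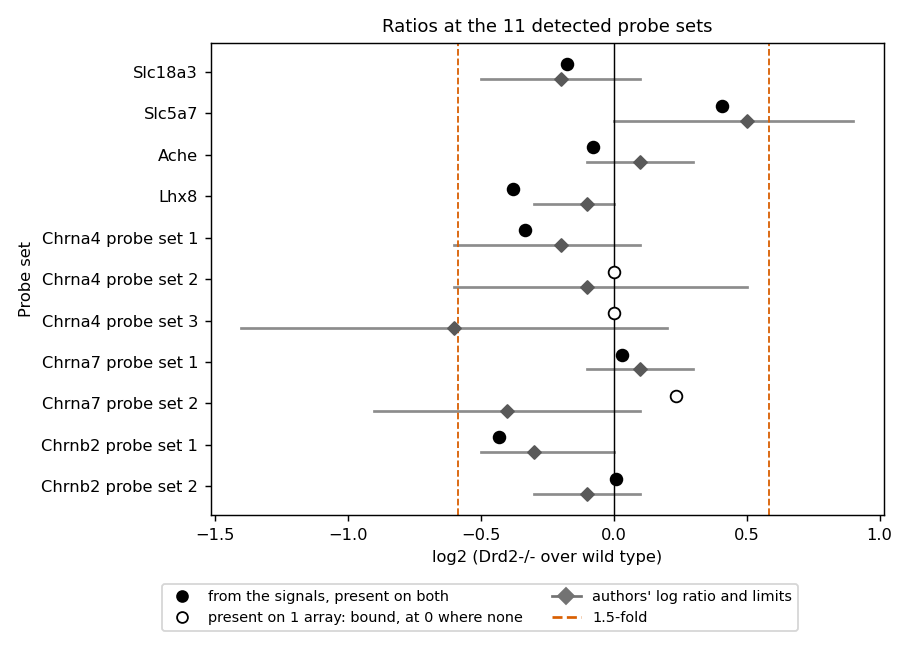
Log2 ratio of Drd2-/- over wild type at the 11 detected probe sets, from the signals (circles) and in the authors' deposited table with its limits (diamonds and lines), with dashed lines at 1.5-fold. All circles lie between -0.43 and 0.41, and Slc5a7 lies farthest above 0 on both measures.

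The other nicotinic subunits were not detected. Of the 13 further subunit genes, 12 had a probe set of their own, and all 21 of their probe sets were called present on neither array. Their signals ran from 0.7 to 63.2 units in wild type (median 10.9) and from 0.9 to 88.4 in Drd2-/- (median 25). They include Chrna6 and Chrnb3, subunits of receptors on midbrain dopamine neurons: the 2 probe sets of Chrna6 read 34.6 and 27.7 units in wild type and 59.8 and 43.7 in Drd2-/-, and the probe set of Chrnb3 read 11.2 and 7.8. The muscle subunits Chrna1, Chrnb1, Chrnd, Chrne and Chrng were likewise not detected. The signal was higher on the Drd2-/- array in 17 of the 21, against 61.7% of the 11461 probe sets with 1 gene present on neither array, and the authors' deposited table calls none of the 21 changed. None is above background by the authors' calls, so no fold is given.

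**Figure D3:**
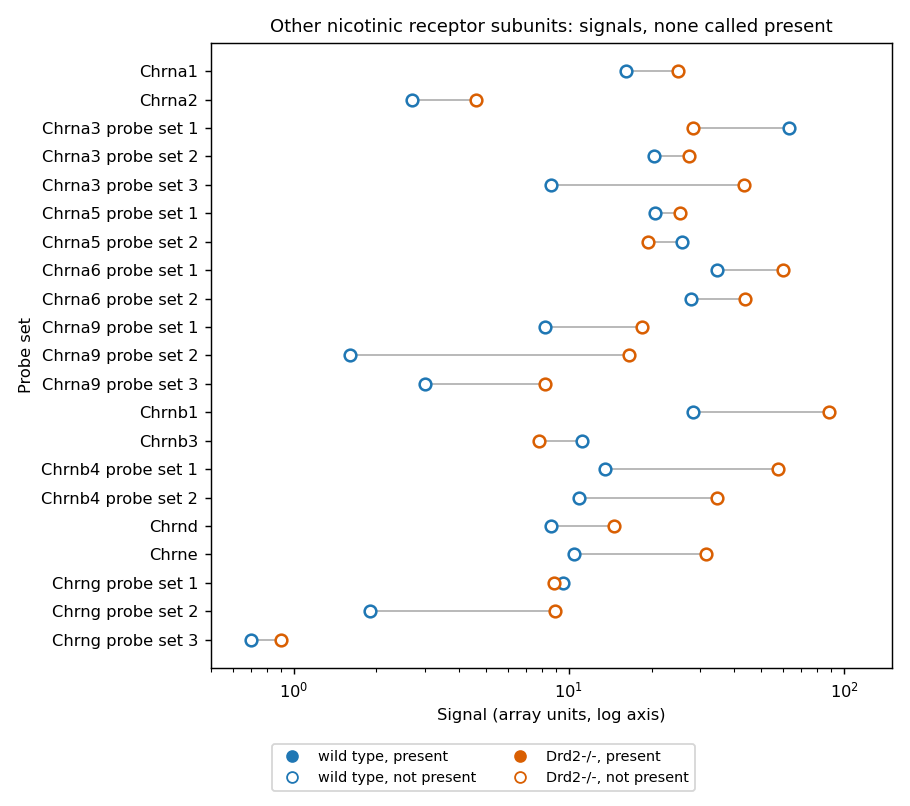
Signals of the 21 probe sets of the other nicotinic subunits on the wild-type (blue) and Drd2-/- (orange) arrays, in array units on a log axis. All points are open because none was called present, and 17 of the 21 have the higher signal on the Drd2-/- array.

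Proteins that help nicotinic receptors assemble or tune them read both ways. Of 10 such genes measured 9 were detected by their brightest probe sets, with a median log2 ratio of -0.17, 1 of them 1.5-fold or more above wild type and 1 as far below. Among all detected genes 9.18% lay that far above and 3.38% that far below. Ric3, a chaperone for the assembly of Chrna7 receptors, read 119.9 units in wild type and 197.8 in Drd2-/- at its brightest probe set, a log2 ratio of 0.72. Its other probe sets, at -0.19 and -0.06, do not share that direction, and the authors' deposited table calls the brightest unchanged at 0.5. Ly6h, a membrane-anchored protein of the Ly6 family that limits Chrna7 receptors at the cell surface, read 3230.6 and 2105.7 units, a log2 ratio of -0.62, and the authors' deposited table calls it decreased at -0.5. The related Lypd6b read -0.49 on the log2 scale, and Ly6e read -0.32 at its brightest probe set and 0.07 at the other. The assembly factor Tmem35a read 0.04. The receptor-bound modulator Lynx1 read -0.06 at its brightest probe set and -0.27 at the other, which the authors' deposited table calls decreased at -0.3. Dimmer probe sets outside that count also passed 1.5-fold: 1 of Lypd1 read 1.22, called increased at 0.6 in the authors' deposited table, against 0.17 at its brightest, and 1 of Lypd6 read -0.74, against -0.17 at its brightest. The authors' deposited table calls that dimmer Lypd6 probe set unchanged at -0.3, and a further Lypd6 probe set present on both arrays read 0.18.

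Genes of choline and acetylcholine metabolism read mostly below 0, with 7 of 9 lower in Drd2-/-, against 57.1% of all detected genes. Of 11 measured 9 were detected by their brightest probe sets, which had a median log2 ratio of -0.18, and 0 of the 9 were 1.5-fold apart, against 12.6% of all detected genes. The plasma membrane choline carrier Slc44a1 read 2737.9 units in wild type and 2083.5 in Drd2-/-, a log2 ratio of -0.39, and the authors' deposited table calls it decreased at -0.3. Its other detected probe set read -0.16 and is called unchanged. Prima1, the anchor that holds acetylcholinesterase in neuronal membranes, read -0.34 at its brightest probe set and 0.04 at the other, both called unchanged. The choline kinase gene Chkb read -0.25. Chka, the paralogue of Chkb, read 0.26 at its brightest probe set and 0.61 and 0.91 at the others, both past 1.5-fold, and the authors' deposited table calls the latter pair increased.

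Further genes of the cholinergic lineage gave a median of -0.12 over the 5 detected of 9 measured. The LIM homeobox factor Isl1, which acts with Lhx8, read 1179.0 units in wild type and 1082.2 in Drd2-/-, a log2 ratio of -0.12. Lhx6, a relative of Lhx8 that marks other interneurons of the same embryonic origin, read -0.30 at its brightest probe set and -0.45 at the other. The authors' deposited table gives these probe sets of Lhx6 0 and -0.2 and calls both unchanged. Ecel1, a membrane peptidase gene, read -0.25. Gbx2 was called present in Drd2-/- alone, at 35.7 against 23.8 units, and the authors' deposited table calls it unchanged at 0.3, so its bound of 1.5-fold is not firm. The cholinergic trophic receptor Ngfr and the substance P receptor Tacr1 were called present on neither array.

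**Figure D4:**
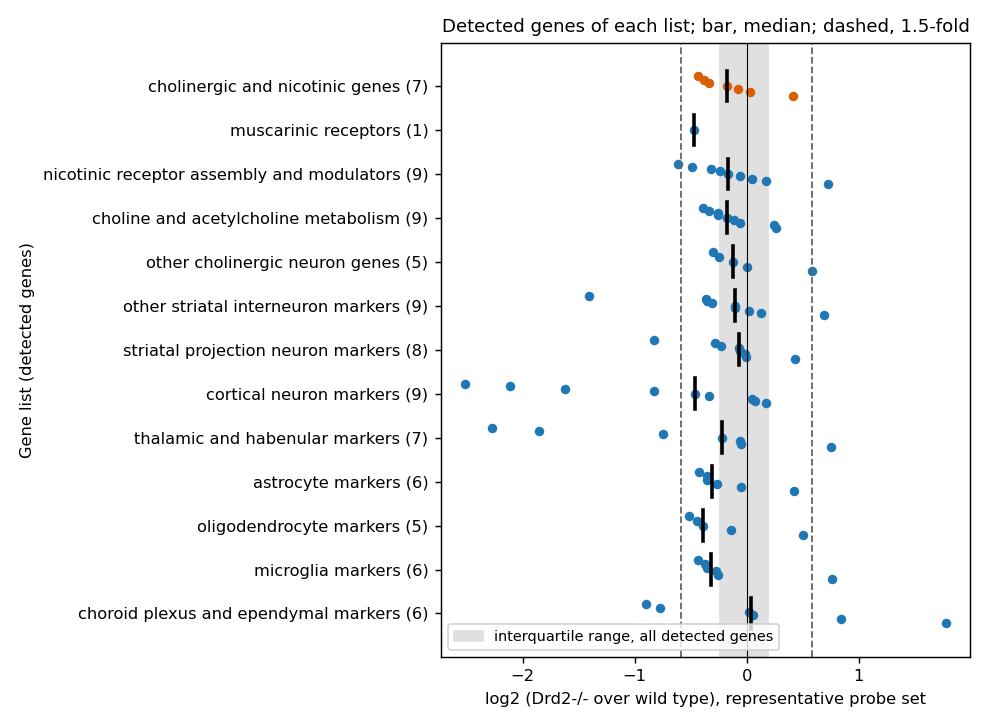
Log2 ratio of Drd2-/- over wild type for the detected genes of each list (points, 1 brightest probe set per gene), with each list's median (bar), 1.5-fold (dashed) and the interquartile range of all detected genes (grey, -0.24 to 0.19). The 7 cholinergic and nicotinic genes (orange) lie between -0.43 and 0.41, while the cortical list reaches -2.51 and the thalamic and habenular list -2.27 (a bound). Other lists also pass that range, among them the interneuron list at -1.40 and the choroid plexus and ependymal list at 1.78 (a bound).

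Among muscarinic receptors, the other receiving end of the acetylcholine signal, Chrm1 read 2999.2 units in wild type and 2170.0 in Drd2-/-, a log2 ratio of -0.47, and its second probe set gave -0.46. The authors' deposited table calls the brighter probe set of Chrm1 decreased and the dimmer one unchanged, both at -0.3. Chrm3 and Chrm4, with a single probe set each, were called present on neither array, and 2 of the 5 muscarinic genes were not analysed here. An absent call at a single probe set does not show that the RNA was missing. Other striatal interneuron markers had a median of -0.11 over 9 detected genes. Of these, Cck read -1.40, Htr3a 0.69 (0.1 in the authors' deposited table), Sst -0.37 and Pvalb -0.36. By brightest probe sets Th, the next highest after Htr3a, read 0.12, below the 0.41 of Slc5a7. A dimmer Nos1 probe set present on both arrays read 0.47, above Slc5a7, against -0.11 at its brightest. The authors' deposited table calls that dimmer probe set unchanged at 0.1. In the authors' deposited table the interneuron list has a median of -0.3. There 5 of its 9 genes, Sst, Npy, Pvalb, Cck and Vip, are called decreased, against 714 of all 12588 detected genes. Projection neuron markers had a median of -0.06 over 8 genes, with Pdyn at -0.82, Pde10a at 0.43, Drd1 at -0.28 and Ppp1r1b at -0.23. The dimmer probe set of Drd1 read -0.02, and those of Pde10a ran from -0.03 to 0.61. Medians over detected markers of other cells were -0.31 for astrocytes (6 genes, with Aqp4 at 0.42) and -0.31 for microglia (6, with Ptprc at 0.76). They were -0.39 for oligodendrocytes (5, with Ermn at 0.50 and a median of -0.1 in the authors' deposited table) and 0.04 for choroid plexus and ependyma (6). In this last list 2 genes passed 1.5-fold above wild type, Kcne2 (a bound) and Ttr (0.84). As far below lay 2, Foxj1 (-0.77) and Mia (a bound), against 9.18% above and 3.38% below of all detected genes. The authors' deposited table calls Ttr increased and Kcne2, Foxj1 and Mia unchanged.

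Some markers of tissue beside the striatum had ratios below those of all the cholinergic genes. Cortical neuron markers had a median of -0.46 over the 9 of 11 measured genes whose brightest probe set was detected, 4 of them past 1.5-fold below wild type and 0 past it above. Among all detected genes 3.38% lay that far below and 9.18% that far above. Neurod6 read 146.2 units in wild type and 25.6 in Drd2-/-, Slc17a7 read 391.6 and 127.2, and Tbr1 read 152.5 and, called absent, 35.2. The authors' deposited table calls Neurod6, Slc17a7 and Tbr1 decreased, at -2.5, -1.8 and -1.1. Rtn4rl2 read 125.9 and 71.1, called unchanged in the authors' deposited table. Cux2 is outside this count, since its brightest probe set was called absent on both arrays, but a dimmer one present on both read 322.2 and 207.8. The signals of all 11 summed to 14696.5 units in wild type and 15014.0 in Drd2-/-, since Nrgn, Lamp5 and Mef2c make up most of the sum and read 0.08, 0.17 and 0.05 on the log2 scale. Thalamic and habenular markers had a median of -0.22 over 7 detected of 8 genes, with summed signals of 1642.1 and 1554.2 units. Among them Slc17a6 read 58.5 and 12.1 units and the habenular receptor Gpr151 59.5 and 16.5, each called present in wild type alone, and the authors' deposited table calls both unchanged. Ramp3 read -0.75 and Rora 0.75 on the log2 scale, called unchanged and increased in that order. Chrna4, Chrna7 and Chrnb2 are also made by neurons of cortex and thalamus, and Chrm1 by those of cortex. The part of such tissue in the readings of these genes, or in that of Cck, was not tested.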

How the data were processed

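Striatal RNA of 1 wild-type and 1 Drd2-/- sample was labelled as biotinylated cRNA for Affymetrix arrays, per the labels' protocols. The authors deposited a linear signal intensity per probe set, scaled per array, and, per the file headers, a detection p-value and call and a log2 Signal Log Ratio with limits and a change call. The software and its settings are not given in the sources used here. At all 45101 probe sets the deposited comparison table held the same intensities as the value table under opposite genotype names, so calls were attached to the array with the identical signal and the authors' log ratios were turned to the sample labels. The change p-value is not printed.

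Of 45037 probe sets other than controls, 34945 were paired with 1 gene, 932 with several and 9160 were unnamed. Signals below 0.1 were set to 0.1, and the log2 ratio of Drd2-/- over wild type was taken. Where only 1 array had a present call, the ratio is a bound: the dim side was taken as its own signal or that array's lowest signal with a present call (5 units in wild type, 5.9 in Drd2-/-), whichever was higher, and the bound was set to 0 where it would cross 0. Detected means called present on at least 1 array. In lists a gene was represented by its brightest probe set, by mean log2 signal. With 1 array per genotype no test was possible, genes were counted at 1.5-fold, and the number of arrays limits the precision. Python 3.11.15, pandas 2.3.3, SciPy 1.17.1 and statsmodels 0.14.6 were used. The scaling steps were tried on simulated data, which did not test the bounds.

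Named genes were Drd2, all members, and, of each other list, up to 4 detected genes with the largest absolute ratio. Tmem35a, Lynx1, Lypd1, Lypd6, Th, Npy, Nos1, Vip, Aqp4, Ptprc, Ermn, Cux2, Penk, Tac1, Rgs9, Nrgn, Lamp5, Mef2c and the undetected genes named were added after their values were seen. Glial lists are otherwise given by their medians. The members and lists were chosen with earlier results of these data known. Upstream sequences came from RefSeq on GRCm38.p6, where all 9 genes matched.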

Additional observations from a re-analysis of the deposited data

How the results depend on the processing

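The median log2 ratio of the 7 detected members was -0.18. It was -0.35 after quantile normalization, where the median of all detected genes was -0.10, and lay between -0.26 and -0.08 under the other alternatives: median centring, intensity-dependent centring (lowess span 0.2), 32 units added, only probe sets present on both arrays, no detection filter, the median over probe sets and the authors' log ratio. No member was 1.5-fold apart in any of these except without the detection filter, which admits Chat and gives 1. The other nicotinic subunits have a median without that filter alone, 0.77 over 12 genes, from signals called present on neither array. Over the 8 alternatives Slc5a7 ran from 0.18 to 0.50 and Chrnb2 from -0.50 to -0.21. Lhx8 ran from -0.44 to -0.10, Slc18a3 from -0.35 to -0.11 and Chrna4 from -0.58 to 0. Ache changed sign with the authors' log ratio (0.1) and Chrna7 after quantile normalization (-0.01). The causes were not tested. No paired analysis was possible because each genotype has 1 array. Signals near background limit what can be said of Chat and of the dimmer probe sets.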
